A study of Cavia porcellus with 13 samples.

Results

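Heat shock proteins and their co-chaperones were followed in guinea pig skin taken 4 days after tick attachment. The members were every gene whose symbol in the deposited table starts with HSPA, HSPB, HSP90, HSPD, HSPE, HSPH, DNAJA, DNAJB, DNAJC, FKBP or BAG. The symbol rule reads no expression value, while the minimum applied next does. The members, gene lists and roles were chosen with earlier results of these data known. Of the 26855 genes in the table, 76 matched, and 72 of these reached 1 TPM in at least 2 libraries, among 14979 genes that did so and were tested. DNAJC5B, DNAJC5G and DNAJB8 were listed at 0 in every library, and HSPB9 reached at most 0.626 TPM. HSPA1A, HSPA1B, HSPA5, HSPH1, HSPD1, HSPE1, HSPB2, DNAJA1 and BAG1 had no row under their symbols and were not analysed here, so the main inducible HSP70 genes, BiP and the mitochondrial HSP60 and HSP10 pair are outside what follows. All counts of members are therefore counts of the 72 that passed the minimum.

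The 13 libraries fell into 2 sets by the prefix of their titles, which the labels do not explain and which was taken as the experiment. CK1 held 3 libraries of skin bitten after saliva immunization (saliva immune), 3 of skin bitten for the first time (first exposure) and 2 of naive, unbitten skin. EF19-5 held 2 libraries each of skin after 3 bites and after 2 bites, and 1 of naive skin. The labels give no tick species, strain, sex or age of the animals and no route of saliva immunization, and leave unsaid whether each library is a different animal. The spread behind every p-value is that of the libraries and may be technical. Values are TPM, a length-scaled share of the transcripts of each library. They keep no record of depth. In bulk skin, fewer cells of a type and less RNA per cell cannot be told apart.

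HSP70 proteins bind exposed hydrophobic stretches of unfolded proteins. J proteins (DNAJ) deliver clients and trigger ATP hydrolysis, and exchange factors such as the HSP110-like HSPA4 and most BAG proteins release the nucleotide. HSP90 matures signalling clients, steroid receptors among them, with partners that carry tetratricopeptide repeats, including the immunophilins FKBP4 and FKBP5. Small heat shock proteins (HSPB) hold aggregating proteins in a soluble state and are abundant in muscle and, for HSPB1, in keratinocytes. FKBP proteins catalyse turns at proline, and those of the endoplasmic reticulum act on secreted proteins, collagens among them. Heat shock factor 1 drives many of the cytosolic genes and the unfolded protein response many of those of the endoplasmic reticulum.

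The tissue of the libraries varied. The 11 keratinocyte marker genes together took 1.16% to 5.86% of TPM, and 27 skeletal muscle genes 2.38% to 10.2% in CK1 bitten skin, against 9.57% and 16.7% in CK1 naive skin. In EF19-5 they took 0.626% to 1.5% in bitten skin and 2.36% in the naive library. The 72 chaperone genes together took 0.653% to 0.978% of TPM in CK1 bitten skin, against 0.944% and 1.01% in CK1 naive skin, and 0.748% to 0.850% in EF19-5 bitten skin, against 0.906% in its naive library. Marker genes of several cell types moved with the comparison of bitten with naive skin. At an unadjusted p under 0.05, 13 of 27 skeletal muscle genes were lower, with a median of -0.90. At that p 6 of 12 macrophage genes, 8 of 11 adipocyte genes and 5 of 11 keratinocyte genes were higher, with medians of 1.07, 0.96 and 0.51. Of the adipocyte genes 1, GPD1, was lower at that p. With the EF19-5 libraries alone 3 adipocyte genes lay above zero and 8 below, with a median of -0.18. All 12 macrophage and all 11 keratinocyte genes stayed above zero there, with medians of 0.77 and 0.36. The part of macrophage, adipocyte and keratinocyte RNA in the values below was not tested. Over both experiments, 16 of the 72 members turned sign in bitten against naive skin with a muscle score as a covariate. That score was the mean of the 27 skeletal muscle genes. With it, 8 of these genes were higher and 11 lower at an unadjusted p under 0.05, so it did not remove the muscle difference. The median log2 difference over all 14979 genes was 0.10 in bitten against naive skin and 0.14 in each CK1 group against naive, and scaling by the median of ratios brought it to -0.00 in the first of these.

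In bitten skin, most transcripts of the cytosolic HSP90 and HSP70 system lay lower than in naive skin. HSP90AA1 and HSP90AB1 differed by only -0.15 and -0.09 in EF19-5, against -0.58 and -0.45 in CK1. Of 13 HSP70 and exchange factor genes, 10 lay below zero in CK1 and 9 in EF19-5. Prolyl isomerases of the endoplasmic reticulum lay higher in CK1 and on either side of naive in EF19-5. Over both experiments FKBP4 differed most by p, with a log2 difference of -0.56, and HSP90AA1 and HSPA8 differed by -0.43 and -0.49. FKBP9 differed by 0.56 and FKBP11 by 0.52. None of these passed the test across all genes. limma, fitted to log2(TPM + 1) with the experiment as a term and Benjamini-Hochberg adjustment over all tested genes, called 0 of 72 members at an adjusted p under 0.05 in bitten against naive skin, where 0.0401% of all genes were called. At an unadjusted p under 0.05, 6 members were higher, against 11.2% of all genes, and 9 were lower, against 4.58% of all genes. The members' median was -0.08, against 0.10 for all genes, with 27 members above zero and 45 below.

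The direction was set out within each experiment as well. In CK1, 33 members had a bitten mean above the naive mean and 39 below, with a median of -0.05, against 0.14 over all genes. EF19-5 gave 23 above and 49 below, with a median of -0.14, against 0.01. Members below naive in both experiments numbered 33, or 45.8% of them, against 22.5% of all tested genes. Another 17, or 23.6%, were above in both, against 40.5% of all genes.

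**Figure D1:**
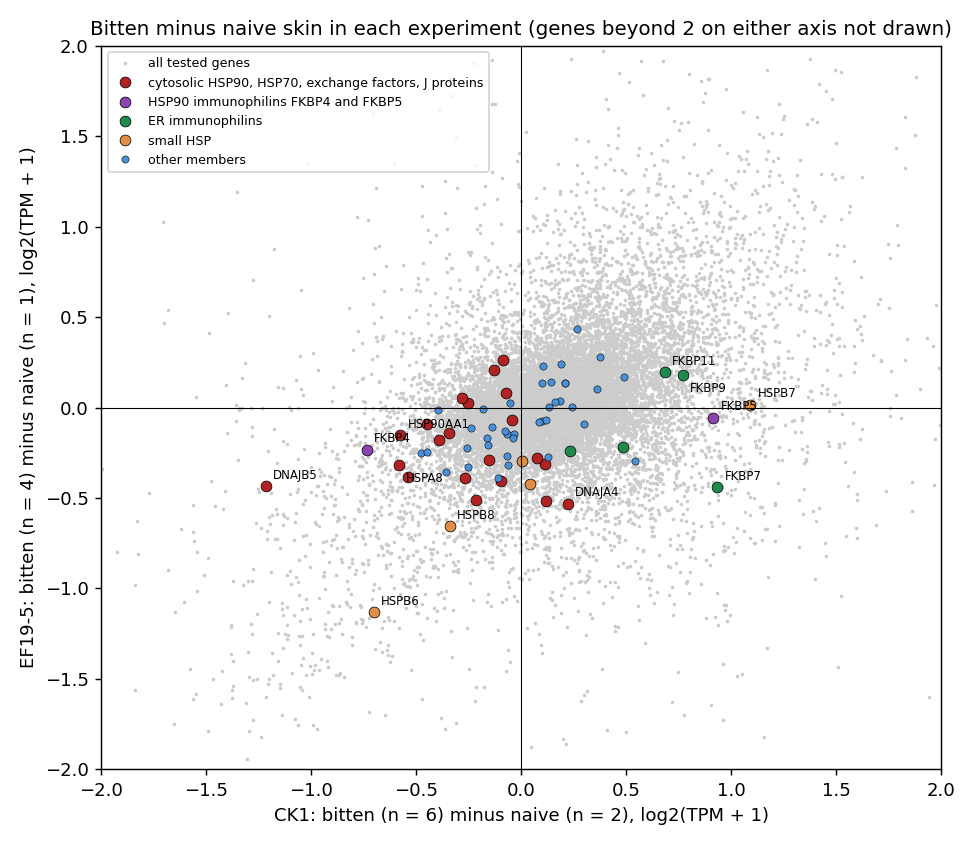
Mean log2(TPM + 1) of bitten skin minus that of naive skin, in CK1 (horizontal, 6 bitten and 2 naive libraries) and in EF19-5 (vertical, 4 bitten libraries and 1 naive). Grey points are all tested genes except 100 beyond 2 on either axis, none of them a member, and coloured points are the 72 members, with the remaining roles in a shared blue; cytosolic HSP90, HSP70 and J protein genes lie mostly left of zero and below it, and genes of the endoplasmic reticulum immunophilins lie to the right of zero.

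HSP90 itself came lower in CK1. HSP90AA1, the stress-inducible cytosolic HSP90, stood at 606, 574 and 659 TPM in saliva immune skin and 729.5, 620.2 and 736 TPM in first exposure skin, against 1000.4 and 943 TPM in CK1 naive skin. Every bitten library of CK1 lay below both naive ones. In EF19-5 the gene had 1262 and 1047 TPM in 3 bites skin and 1119.8 and 1117 TPM in 2 bites skin, against 1261 TPM in the EF19-5 naive library, so that 1 bitten library reached the naive level. Its log2 difference was -0.43 (SE 0.12; limma, adjusted p = 0.147) over both experiments, -0.67 in saliva immune and -0.49 in first exposure skin. HSP90AB1, the constitutive form, had 342, 337 and 252 TPM in saliva immune skin and 305, 246 and 329 TPM in first exposure skin, against 379 and 440.3 TPM in CK1 naive skin. Both CK1 bitten groups again lay wholly below naive skin. EF19-5 libraries held 413 and 346 TPM in 3 bites skin and 411 and 408 TPM in 2 bites skin, against 420.1 TPM in the EF19-5 naive library, all bitten ones lower but by little, and the log2 difference over both experiments was -0.33 (SE 0.131; limma, adjusted p = 0.264). With the muscle covariate the median of the 2 cytosolic HSP90 genes was -0.31, against -0.38 without it, and 1 rather than 2 had an unadjusted p under 0.05.

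FKBP4, the immunophilin that joins HSP90 in steroid receptor complexes and carries them toward the nucleus (ENSCPOG00000002453), had the smallest p of all members. It stood at 170.1, 155 and 174 TPM in saliva immune skin and 179.9, 179 and 186 TPM in first exposure skin, against 292 and 288 TPM in CK1 naive skin. Bitten and naive libraries were far apart there, and the libraries of each group lay close together. EF19-5 gave 266 and 238 TPM in 3 bites skin and 217 and 218 TPM in 2 bites skin, against 275 TPM in the EF19-5 naive library, in the same order with smaller gaps. The log2 difference was -0.56 (SE 0.111) over both experiments, with an unadjusted p of 0.000216 and an adjusted p of 0.0789 by limma, so the gene missed the threshold. Against CK1 naive skin it differed by -0.80 (SE 0.121; limma, adjusted p = 0.105) in saliva immune and -0.67 (SE 0.121; limma, adjusted p = 0.134) in first exposure skin. An exact permutation test, two-sided, that exchanged bitten and naive labels within experiments was computed for each of the 72 members. For FKBP4, 1 of 140 arrangements was as large, exact permutation p = 0.00714, the smallest that this design can give. The permutation used the same libraries as the fit in which FKBP4 ranked first, so it adds no separate support. It was not run on genes outside the 72 members, so no share of all genes stands beside it. Whether FKBP4 was called depended on the fit. With array weights the adjusted p was 0.0401, without naive replicate 3 it was 0.0471 (log2 difference -0.74), and over all 22 alternatives it ran from 0.0401 to 1.

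FKBP5, the related immunophilin that lowers hormone binding of the glucocorticoid receptor and is itself a glucocorticoid-induced gene (ENSCPOG00000000520), ran the other way in CK1. It had 19.0, 20.5 and 22.9 TPM in saliva immune skin and 37.1, 23.8 and 29.4 TPM in first exposure skin, against 14.3 and 11.2 TPM in CK1 naive skin. All 6 bitten libraries lay above both naive ones, and the first exposure libraries lay above the saliva immune ones. EF19-5 libraries held 31.9 and 32.3 TPM in 3 bites skin and 52.4 and 22.1 TPM in 2 bites skin, against 34.4 TPM in the EF19-5 naive library, with bitten values on either side of naive. The log2 difference was 1.16 (SE 0.312; limma, adjusted p = 0.215) in first exposure and 0.67 (SE 0.312; limma, adjusted p = 0.445) in saliva immune skin, and 0.58 (SE 0.26; limma, adjusted p = 0.304) over both experiments. It turned to -0.056 with the EF19-5 libraries alone. TPM of FKBP4 divided by TPM of FKBP5 was 4.85 to 8.96 in CK1 bitten skin, against 20.3 and 25.7 in CK1 naive skin. In EF19-5 it was 4.14 to 9.90 in bitten skin, against 7.98 in the naive library. Naive skin of the 2 experiments thus differed in this ratio by more than bitten and naive skin of EF19-5 did. Of 9 genes listed as glucocorticoid responses, 1 was higher at an unadjusted p under 0.05 in bitten skin (ANGPTL4, log2 difference 1.45) and 0 were lower, and their median was -0.03.

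**Figure D2:**
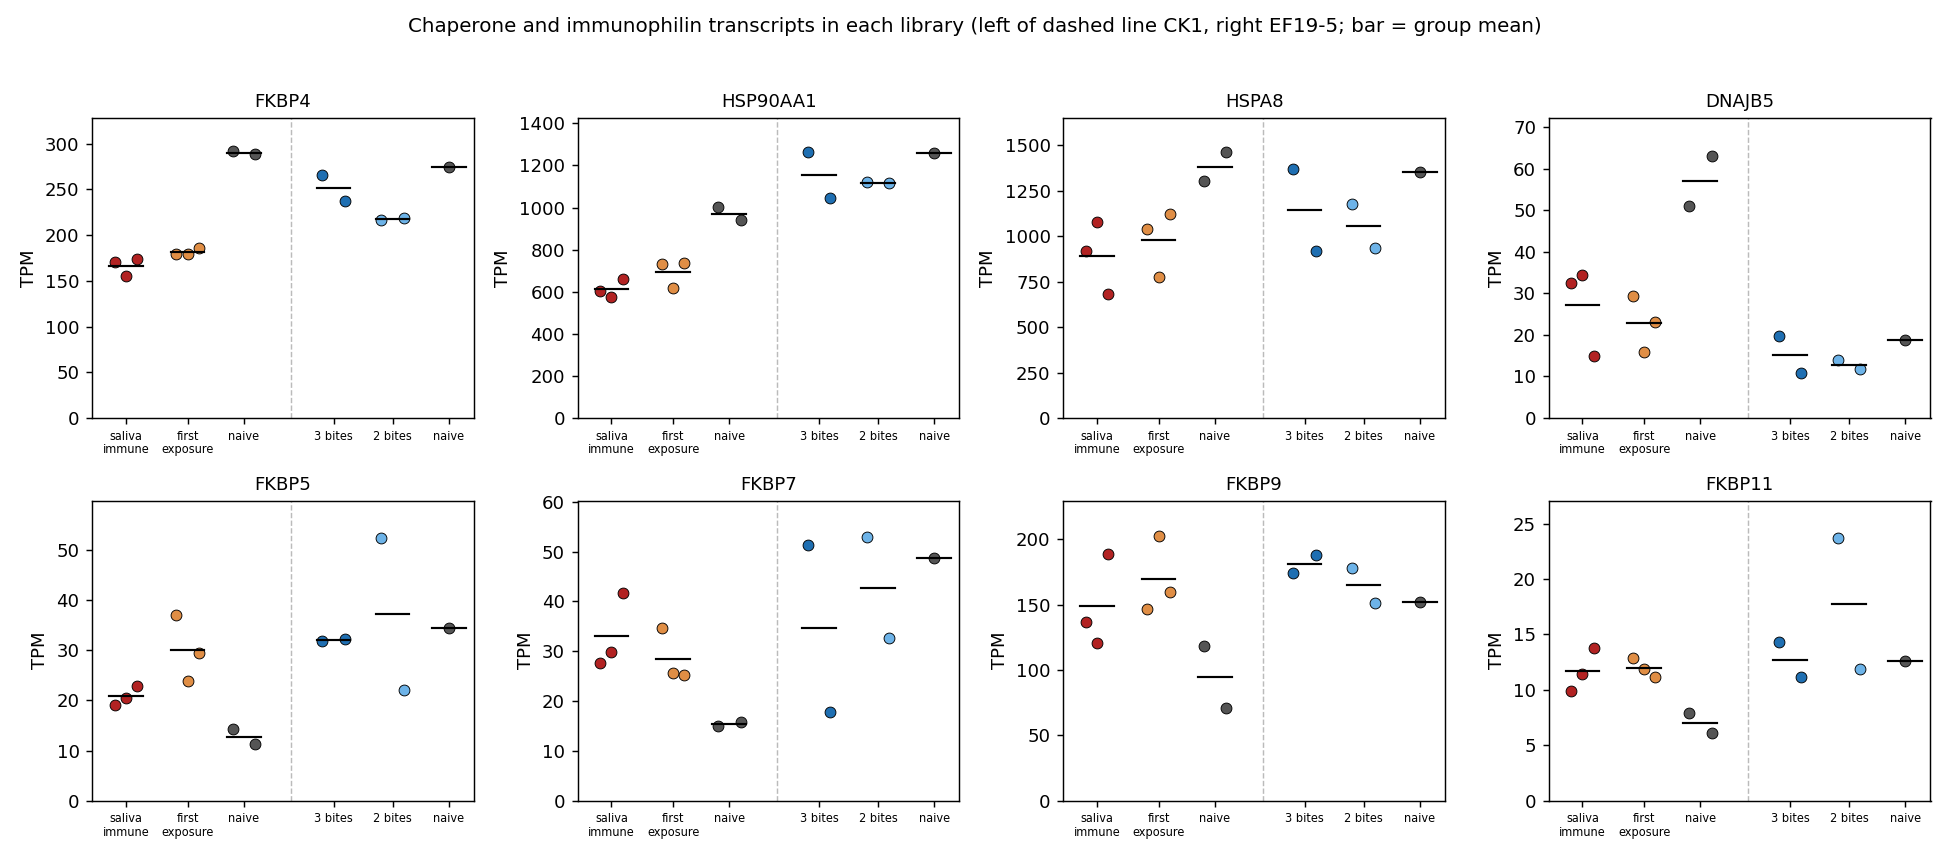
TPM of 8 members in each of the 13 libraries (linear axes from 0), CK1 groups left of the dashed line and EF19-5 groups right of it, with a bar at each group mean. FKBP4, HSP90AA1, HSPA8 and DNAJB5 show CK1 bitten libraries all below CK1 naive ones, and FKBP5, FKBP7, FKBP9 and FKBP11 show them all above, while in EF19-5 the FKBP5, FKBP7 and FKBP11 libraries lie on either side of the naive one.

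Among cytosolic HSP70 genes and their exchange factors, all 13 lay below zero in bitten against naive skin, with a median of -0.16. Of these, 2 had an unadjusted p under 0.05, where 4.58% of all genes were lower. All 13 stayed below zero with median-of-ratios scaling and with quantile normalization. Both lowered the median over all genes, from 0.10 to -0.005 and -0.02, so staying below zero there says little. With the muscle covariate 12 lay below zero, as BAG2 turned, and 1 passed an unadjusted p of 0.05. Within experiments the sign was less uniform, with 10 of 13 below zero in CK1 and 9 of 13 in EF19-5. HSPA8, the constitutive HSC70 and the most abundant member with a mean of 1086 TPM, stood at 916, 1078 and 681 TPM in saliva immune skin and 1040.2, 773 and 1120.1 TPM in first exposure skin, against 1304 and 1459.9 TPM in CK1 naive skin. Each CK1 bitten library lay below both naive ones, with a wide range among the bitten. EF19-5 gave 1369.6 and 918 TPM in 3 bites skin and 1175 and 932 TPM in 2 bites skin, against 1352 TPM in the EF19-5 naive library, where 1 library of 3 bites skin exceeded naive. HSPA8 had a log2 difference of -0.49 (SE 0.173; limma, adjusted p = 0.215), or -0.26 with the muscle covariate.

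HSPA4, an HSP110-type exchange factor, had 143, 116 and 122 TPM in saliva immune skin and 136, 118 and 146 TPM in first exposure skin, against 162 and 169 TPM in CK1 naive skin. EF19-5 libraries held 169 and 156 TPM in 3 bites skin and 181 and 186 TPM in 2 bites skin, against 191 TPM in the EF19-5 naive library. Bitten libraries lay below naive in both experiments, with a log2 difference of -0.27 (SE 0.102; limma, adjusted p = 0.229). HSPA4L, the second exchange factor of that type, did not keep 1 order. It had 28.0, 20.4 and 39.0 TPM in saliva immune skin and 27.9, 37.1 and 34.9 TPM in first exposure skin, against 44.4 and 31.4 TPM in CK1 naive skin. In EF19-5 it had 66.4 and 66.7 TPM in 3 bites skin and 46.5 and 42.4 TPM in 2 bites skin, against 52.4 TPM in the EF19-5 naive library, so that 3 bites skin was above naive and 2 bites skin below.

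HSPA2, an HSP70 known for its part in sperm development and also present in epidermis, varied more between libraries of a group than between groups. It was at 41.1 to 99.5 TPM in CK1 bitten skin, against 89.0 and 52.0 TPM in CK1 naive skin, and at 42.1 to 127 TPM in EF19-5 bitten skin, against 119.9 TPM in its naive library. HSPA1L and HSPA6, HSP70 genes of low level here, lay at 2.79 to 7.77 and 2.20 to 7.82 TPM over all libraries. HSPA14, which works with the ribosome, was at 30.5 to 37.9 TPM in CK1 bitten skin, against 42.7 and 38.5 TPM in CK1 naive skin. In EF19-5 it had 41.5 and 41.1 TPM in 3 bites skin and 35.1 and 65.4 TPM in 2 bites skin, against 43.7 TPM in the EF19-5 naive library, on either side of naive. HSPA8, HSPA2 and HSPA1L are close in sequence, and HSP90AA1 and HSP90AB1 likewise. How reads shared between such genes were counted is not given in the sources used here, so the split between them is uncertain.

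Most BAG proteins bind the HSP70 ATPase domain, and BAG6 is counted with them here by its name. BAG3, which with HSPB8 sends damaged muscle and skin proteins to autophagy, had 160.1, 114 and 114 TPM in saliva immune skin and 172, 126 and 141 TPM in first exposure skin, against 151 and 141 TPM in CK1 naive skin. CK1 groups overlapped. EF19-5 libraries held 137 and 109.97 TPM in 3 bites skin and 112 and 111 TPM in 2 bites skin, against 155 TPM in the EF19-5 naive library, all 4 bitten ones below naive, and the log2 difference over both experiments was -0.20 (SE 0.138; limma, adjusted p = 0.48). BAG4 and BAG5 lay above zero in CK1 (log2 difference 0.12 and 0.08) and below zero in EF19-5 (-0.52 and -0.28). BAG2, an inhibitor of the ubiquitin ligase CHIP, and BAG6, which guards membrane proteins before insertion, differed from naive by -0.04 and -0.02, with SE of 0.175 and 0.0932. HSPBP1, a further exchange factor, differed by -0.05.

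Of 6 cytosolic J proteins of classes A and B, 5 lay below zero in bitten skin and 2 of them at an unadjusted p under 0.05, where 4.58% of all genes were lower. DNAJB5, an HSP40 relative, differed most, at 32.5, 34.4 and 14.9 TPM in saliva immune skin and 29.4, 16.0 and 23.2 TPM in first exposure skin, against 51.1 and 63.0 TPM in CK1 naive skin. The CK1 bitten libraries all lay below naive, but spread widely among themselves, and the lowest, saliva immune replicate 3, was also the CK1 library with the least muscle RNA. EF19-5 libraries held 19.7 and 10.7 TPM in 3 bites skin and 13.9 and 11.7 TPM in 2 bites skin, against 18.8 TPM in the EF19-5 naive library, with 1 bitten library above naive. The log2 difference was -0.95 (SE 0.268; limma, adjusted p = 0.149) over both experiments and ran from -1.22 to -0.44 over the alternatives.

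DNAJB1, the heat-inducible HSP40 that partners HSPA8, had 30.7, 27.1 and 33.2 TPM in saliva immune skin and 39.3, 35.8 and 34.7 TPM in first exposure skin, against 42.9 and 44.9 TPM in CK1 naive skin. Saliva immune libraries lay below first exposure libraries, and these below naive ones, without overlap. The log2 difference against naive was -0.52 (SE 0.163; limma, adjusted p = 0.321) in saliva immune and -0.26 (SE 0.163; limma, adjusted p = 0.487) in first exposure skin. EF19-5 gave 28.3 and 28.3 TPM in 3 bites skin and 34.9 and 48.5 TPM in 2 bites skin, against 38.7 TPM in the EF19-5 naive library. DNAJB2, known in neurons for handing clients to the proteasome, was at 75.0 to 100.01 TPM in CK1 bitten skin, against 104 and 93.6 TPM in CK1 naive skin, and at 60.9 to 99.0 TPM in EF19-5 bitten skin, against 107 TPM. Its log2 difference was -0.31 (SE 0.132; limma, adjusted p = 0.288).

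DNAJA4, a class A J protein, had 107, 124 and 11.7 TPM in saliva immune skin and 69.3, 42.1 and 80.0 TPM in first exposure skin, against 42.1 and 58.3 TPM in CK1 naive skin. EF19-5 values were 12.5 and 10.9 TPM in 3 bites skin and 9.74 and 9.19 TPM in 2 bites skin, against 15.7 TPM in the EF19-5 naive library. Saliva immune replicate 3, in which the 27 muscle genes took 2.38% of TPM, was the lowest of CK1, and the other CK1 groups overlapped. The log2 difference of -0.04 turned sign with the muscle covariate. DNAJB4 had 84.3, 77.3 and 51.8 TPM in saliva immune skin and 69.2, 69.4 and 81.6 TPM in first exposure skin, against 77.6 and 74.0 TPM in CK1 naive skin, with overlap between all CK1 groups, and 97.4 to 148 TPM in EF19-5 bitten skin, against 102 TPM. DNAJB13, a J protein of sperm and cilia, did not exceed 1.45 TPM.

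Of 9 chaperones of the endoplasmic reticulum, 7 lay above zero in bitten against naive skin, 0 at an unadjusted p under 0.05, with a median of 0.13 beside 0.10 for all genes. With median-of-ratios scaling 5 were above zero, as DNAJB12 and DNAJC1 turned. HSP90B1 (GRP94), the HSP90 of the endoplasmic reticulum, was 1 of the 2 below zero, at 240.2, 208 and 321 TPM in saliva immune skin and 321, 276 and 305 TPM in first exposure skin, against 392 and 335 TPM in CK1 naive skin. All CK1 bitten libraries lay below naive, with saliva immune replicates 1 and 2 lowest. In EF19-5 it had 535 and 486 TPM in 3 bites skin and 469.96 and 461 TPM in 2 bites skin, against 491 TPM in the EF19-5 naive library, close to naive on either side. Its log2 difference from naive was -0.52 (SE 0.188; limma, adjusted p = 0.371) in saliva immune and -0.27 (SE 0.188; limma, adjusted p = 0.528) in first exposure skin.

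DNAJB9, the other one below zero and a J protein of BiP that the unfolded protein response induces, was at 39.6 to 59.9 TPM in CK1 bitten skin, against 49.1 and 60.5 TPM in CK1 naive skin. DNAJC3, a further partner of BiP and an inhibitor of the kinase PERK, was at 28.7 to 41.9 TPM there, against 40.4 and 28.9 TPM in CK1 naive skin. In EF19-5 its bitten libraries, at 64.5 and 55.0 TPM in 3 bites and 72.7 and 55.5 TPM in 2 bites skin, were all above the 52.3 TPM of naive skin. DNAJC10, a disulfide reductase, was likewise above naive in all 4 (88.9 to 101 TPM, against 85.0 TPM). The log2 differences over both experiments were -0.21 for DNAJB9, 0.15 for DNAJC3 and 0.14 for DNAJC10, with adjusted p by limma of 0.571, 0.633 and 0.554. HSPA13, DNAJB12, DNAJB14, DNAJC1 and DNAJC25 differed by 0.04 to 0.18.

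All 5 immunophilins of the endoplasmic reticulum lay above zero in bitten against naive skin, 2 at an unadjusted p under 0.05, with a median of 0.46. Of all genes, 11.2% were higher at that p, with a median of 0.10. With median-of-ratios scaling, quantile normalization or the muscle covariate 4 of 5 lay above zero, FKBP14 having turned. With the EF19-5 libraries alone 2 lay above zero and 3 below, with a median of -0.22, as FKBP7, FKBP10 and FKBP14 turned. FKBP9 had 137, 121 and 189 TPM in saliva immune skin and 147, 202 and 159.9 TPM in first exposure skin, against 118 and 70.9 TPM in CK1 naive skin. Each CK1 bitten library exceeded both naive ones, which themselves lay far apart. In EF19-5 it had 174 and 188 TPM in 3 bites skin and 178 and 151 TPM in 2 bites skin, against 152 TPM in the EF19-5 naive library, with 1 library of 2 bites skin just under naive. Over both experiments FKBP9 differed by 0.56 (SE 0.184; limma, adjusted p = 0.192).

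FKBP11, known from secretory cells such as plasma cells, had 9.93, 11.4 and 13.8 TPM in saliva immune skin and 12.8, 11.9 and 11.1 TPM in first exposure skin, against 7.90 and 6.10 TPM in CK1 naive skin, without overlap. Its log2 difference was 0.67 in saliva immune and 0.70 in first exposure skin, with adjusted p of 0.392 and 0.32 by limma. FKBP7 had 27.6, 29.9 and 41.8 TPM in saliva immune skin and 34.6, 25.6 and 25.3 TPM in first exposure skin, against 15.0 and 15.8 TPM in CK1 naive skin, and the bitten groups again lay wholly above naive. FKBP10, which folds collagen and whose loss causes brittle bone disease in people, had 22.1, 26.9 and 36.1 TPM in saliva immune skin and 23.4, 20.0 and 18.7 TPM in first exposure skin, against 18.2 and 15.6 TPM in CK1 naive skin, with the first exposure libraries only just above naive.

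EF19-5 gave none of these separations. FKBP7 had 51.4 and 17.9 TPM in 3 bites skin and 52.9 and 32.6 TPM in 2 bites skin, against 48.6 TPM in the EF19-5 naive library. FKBP10 stood at 37.6 and 14.6 TPM in 3 bites skin and 45.3 and 26.9 TPM in 2 bites skin, against 33.5 TPM in the EF19-5 naive library, and FKBP11 at 14.3 and 11.1 TPM in 3 bites skin and 23.7 and 11.8 TPM in 2 bites skin, against 12.6 TPM in the EF19-5 naive library. In all of them 3 bites replicate 1 and 2 bites replicate 1 lay above their partners of the same group. The difference between bitten and naive skin in EF19-5 minus that in CK1 was -1.37 for FKBP7 (SE 0.586; limma, unadjusted p = 0.0408, adjusted p = 0.999). Over all 5 it was below zero, with a median of -0.59, against -0.12 over all genes. The 9 fibroblast genes followed as markers, which include collagens, were all below zero in bitten skin over both experiments, with a median of -0.51. Of them, 0 had an unadjusted p under 0.05. In first exposure skin all 9 were below naive, with a median of -0.52, but in saliva immune skin 4 were above and 5 below, with a median of -0.05. Their part in these values was not tested.

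**Figure D3:**
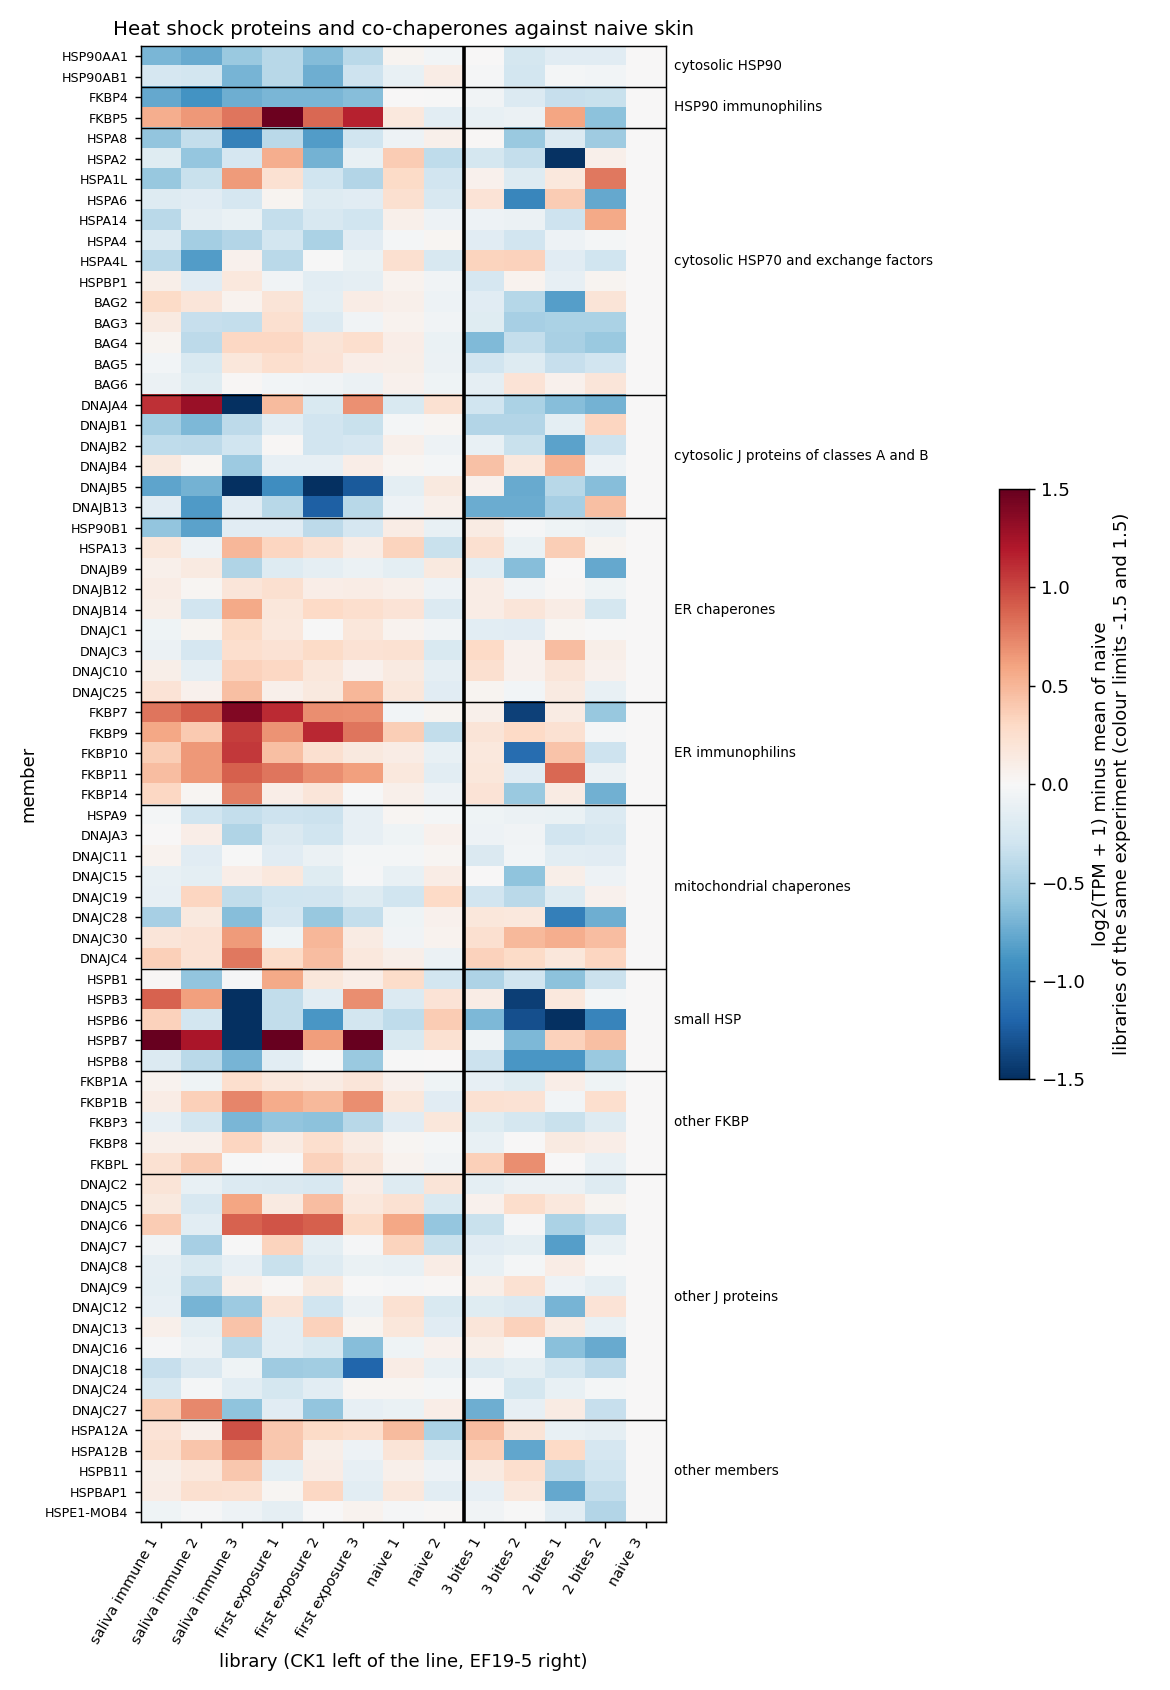
Each row is 1 of the 72 members, ordered by role, and each column a library, with CK1 left of the line and EF19-5 right of it. Colour is log2(TPM + 1) minus the mean of the naive libraries of the same experiment, cut at -1.5 and 1.5, so the EF19-5 naive column is 0 by construction; HSP90, FKBP4 and DNAJB5 rows are blue and FKBP5, FKBP7, FKBP9 and FKBP11 rows red across CK1 bitten skin.

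Of 8 mitochondrial members, 6 lay below zero in bitten against naive skin and 2 above, the 2 above at an unadjusted p under 0.05. Of all genes, 11.2% were higher at that p. HSPA9 (mortalin), the HSP70 of the matrix, had 99.4, 82.1 and 78.8 TPM in saliva immune skin and 81.6, 80.9 and 93.0 TPM in first exposure skin, against 103 and 99.6 TPM in CK1 naive skin. EF19-5 libraries held 107 and 105 TPM in 3 bites skin and 104 and 96.3 TPM in 2 bites skin, against 112 TPM in the EF19-5 naive library. Bitten libraries lay below naive in both experiments without exception. The log2 difference was -0.20 (SE 0.0919; limma, adjusted p = 0.32). HSPA9 was the second of the 2 members at the smallest permutation p, which was not computed for genes outside the members. DNAJC4 was the only member above naive in every bitten library of both experiments. It had 27.1, 24.4 and 36.8 TPM in saliva immune skin and 25.5, 29.2 and 23.5 TPM in first exposure skin, against 22.3 and 19.6 TPM in CK1 naive skin. EF19-5 gave 29.9 and 28.7 TPM in 3 bites skin and 26.5 and 29.4 TPM in 2 bites skin, against 23.4 TPM in the EF19-5 naive library, and the log2 difference was 0.34 (SE 0.125; limma, adjusted p = 0.225). DNAJC30, which in people is tied to repair of respiratory complex I, differed by 0.32, with an adjusted p of 0.312 by limma. DNAJA3, DNAJC11, DNAJC15, DNAJC19 and DNAJC28, import and folding partners of the organelle or genes placed there, differed by -0.36 to -0.07.

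Without overlap in either experiment, 1 member was higher (DNAJC4), against 3.09% of all genes, and 5 were lower (FKBP4, HSP90AB1, HSPA4, HSPA9 and HSPB8), against 1.76% of all genes. Within CK1 alone 7 were higher and 12 lower, against 10.6% and 5.02%. Within EF19-5, where a single naive library makes such an outcome easy, 5 were higher and 21 lower, against 16.9% and 15.3%.

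Small heat shock proteins of muscle were among the members with the widest ranges. The highest library exceeded the lowest by a median of 2.11 times over the 71 members with no 0, and by over 10 times in 4, which were DNAJA4, HSPB3, HSPB6 and HSPB7. HSPB6 (HSP20), a partner of contractile proteins, stood at 2441, 1583 and 282 TPM in saliva immune skin and 1489.6, 1051 and 1584 TPM in first exposure skin, against 1473 and 2508 TPM in CK1 naive skin. Saliva immune replicate 3 lay far below its group. EF19-5 libraries held 252 and 160.2 TPM in 3 bites skin and 137 and 202 TPM in 2 bites skin, against 401 TPM in the EF19-5 naive library, all bitten ones below naive. HSPB6 had a log2 difference of -0.85 (SE 0.474; limma, adjusted p = 0.396) and turned sign with the muscle covariate. HSPB7, the cardiovascular small heat shock protein, had 858, 381 and 51.8 TPM in saliva immune skin and 614, 253 and 668 TPM in first exposure skin, against 139 and 191 TPM in CK1 naive skin. Of 6 CK1 bitten libraries, 5 lay above both naive ones and saliva immune replicate 3 lay below. In EF19-5 it had 61.2 and 39.4 TPM in 3 bites skin and 80.5 and 86.7 TPM in 2 bites skin, against 63.3 TPM in the EF19-5 naive library. Its log2 difference was 0.72 with an SE of 0.64. HSPB3, a further muscle form, was at 8.81 to 56.3 TPM in CK1 bitten skin, against 26.0 and 34.7 TPM in CK1 naive skin.

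Muscle fibre genes are set beside these, and their part in the values was not tested beyond the covariate, which left many fibre genes different. MYH7, the myosin of slow fibres, had 868, 646 and 75.3 TPM in saliva immune skin and 568, 392 and 789 TPM in first exposure skin, against 177 and 189.8 TPM in CK1 naive skin. ACTN3, an actinin of fast fibres, had 857, 1367 and 617 TPM in saliva immune skin and 696, 491 and 774 TPM in first exposure skin, against 2671 and 4846 TPM in CK1 naive skin. In EF19-5, MYH7 had 40.2 and 64.8 TPM in 3 bites skin and 32.4 and 42.3 TPM in 2 bites skin, against 34.9 TPM in the EF19-5 naive library, and ACTN3 333 and 77.1 TPM in 3 bites skin and 55.9 and 69.1 TPM in 2 bites skin, against 544 TPM in the EF19-5 naive library. HSPB7 and MYH7 were thus above naive in the same 5 CK1 bitten libraries, while ACTN3 was below naive in all 6. CRYAB, the alpha B crystallin of muscle and lens and a small heat shock protein outside the symbol rule, had 919.7, 509.7 and 125 TPM in saliva immune skin and 796, 300.2 and 613 TPM in first exposure skin, against 458 and 646 TPM in CK1 naive skin, with a log2 difference of -0.41 over both experiments that turned sign with the muscle covariate.

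**Figure D4:**
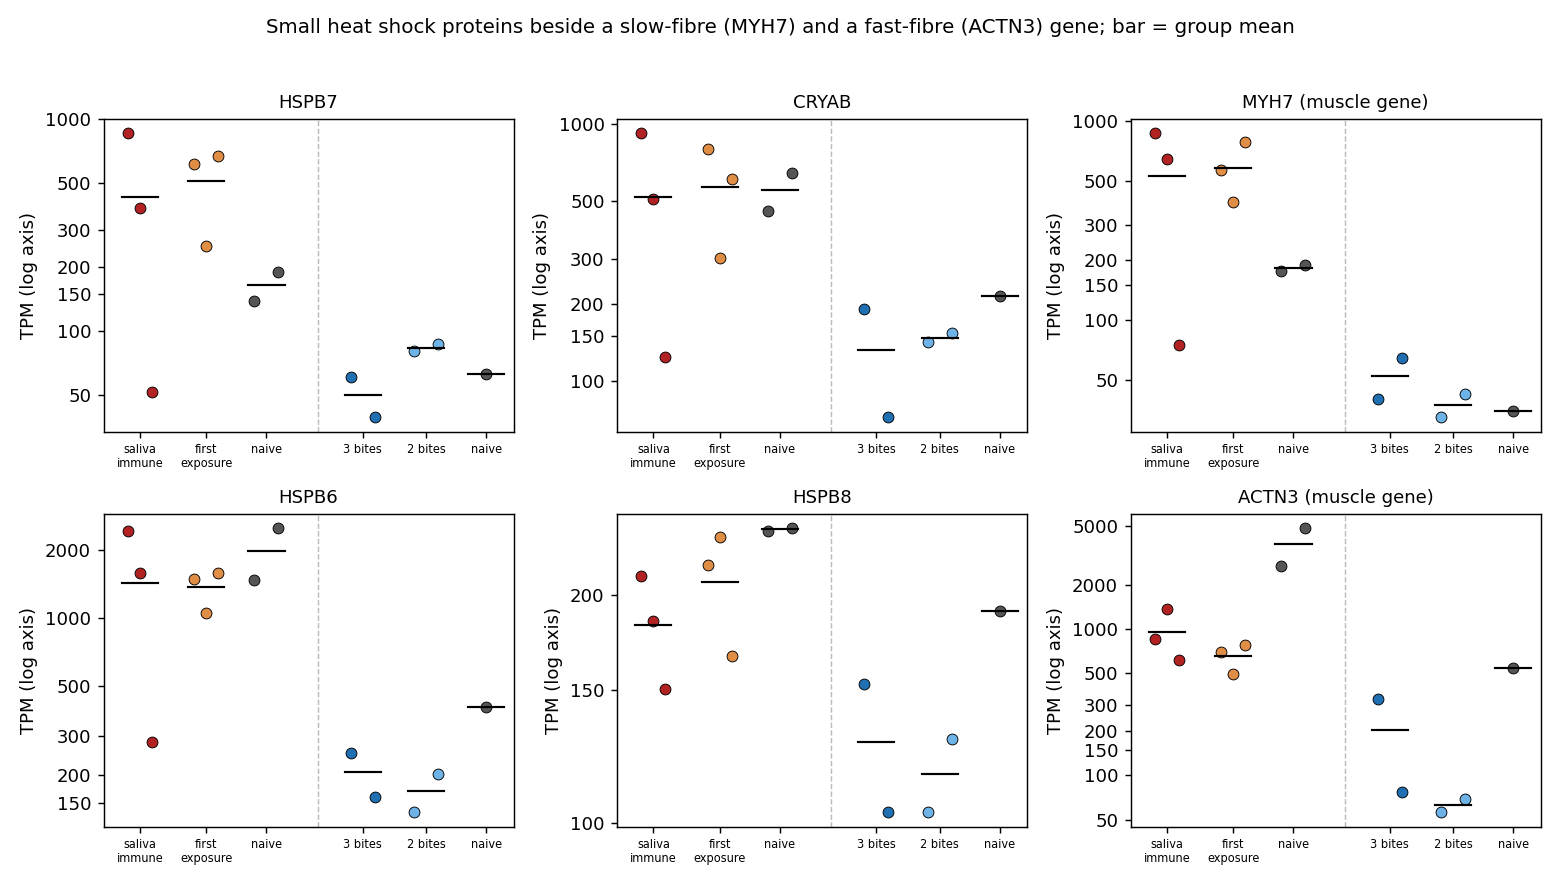
TPM (log axis) of 3 HSPB genes and of CRYAB beside MYH7, a slow-fibre gene, and ACTN3, a fast-fibre gene, in each library, with bars at group means and a dashed line between CK1 and EF19-5. HSPB7 and MYH7 are above both CK1 naive libraries in the same 5 bitten ones and low in saliva immune replicate 3, and ACTN3 is below naive in all 10 bitten libraries of its own experiment.

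HSPB8, which forms a complex with BAG3, had 212, 185 and 150.3 TPM in saliva immune skin and 219, 239 and 166 TPM in first exposure skin, against 243 and 245 TPM in CK1 naive skin. EF19-5 values were 152 and 103 TPM in 3 bites skin and 103 and 129 TPM in 2 bites skin, against 190.3 TPM in the EF19-5 naive library. Every bitten library lay below naive in its experiment, and the log2 difference was -0.45 (SE 0.156; limma, adjusted p = 0.212), or -0.30 with the muscle covariate. HSPB1 (HSP27), the stress protein of the upper epidermis, had 978, 645 and 957 TPM in saliva immune skin and 1442, 1091 and 1035 TPM in first exposure skin, against 1170.00 and 802 TPM in CK1 naive skin. First exposure libraries lay above all saliva immune ones, with naive skin between and across them. All 4 EF19-5 bitten libraries, at 872 and 973 TPM in 3 bites and 784 and 958 TPM in 2 bites skin, were below the 1199 TPM of naive skin. Over both experiments the difference was -0.12 (SE 0.201; limma, adjusted p = 0.806).

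FKBP3, a nuclear form, had 51.6, 46.3 and 34.5 TPM in saliva immune skin and 37.0, 36.4 and 41.7 TPM in first exposure skin, against 49.8 and 63.3 TPM in CK1 naive skin. EF19-5 libraries held 40.8 and 38.5 TPM in 3 bites skin and 36.5 and 40.3 TPM in 2 bites skin, against 46.4 TPM in the EF19-5 naive library. FKBP3 overlapped naive skin in CK1 and not in EF19-5, with a log2 difference of -0.38 (SE 0.128; limma, adjusted p = 0.205). FKBP1B, which like FKBP1A steadies calcium release channels, was at 19.1 to 30.0 TPM in CK1 bitten skin, against 20.0 and 15.6 TPM in CK1 naive skin. Its difference was 0.38 (SE 0.143; limma, adjusted p = 0.239). FKBP1A, the protein that binds FK506 and rapamycin, and FKBP8, anchored in the outer mitochondrial membrane, lay at 235 to 347 and 151 to 208 TPM over all 13 libraries. FKBPL lay at 6.54 to 15.2 TPM.

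Of 12 other J proteins, 9 lay below zero and 3 above, 0 at an unadjusted p under 0.05, between -0.40 for DNAJC18 and 0.25 for DNAJC6, the auxilin that strips clathrin from vesicles. DNAJC7, which carries clients between HSP70 and HSP90, differed by -0.15, DNAJC8, a splicing partner, by -0.12, DNAJC9, a histone chaperone, by -0.03 and DNAJC5, the cysteine string protein of secretory vesicles, by 0.18. DNAJC2, DNAJC12, DNAJC13, DNAJC16, DNAJC24 and DNAJC27 lay between -0.28 and 0.11. The remaining members matched the rule by name more than by function. HSPB11 is a subunit of the transport machinery of cilia, HSPE1-MOB4 a read-through of 2 genes, HSPA12A and HSPA12B are distant relatives of HSP70, and HSPBAP1 binds a small heat shock protein. They differed by 0.03, -0.08, 0.27, 0.16 and -0.01, in that order.

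Partners of HSP90 and HSP70 outside the symbol rule were counted next. Of 18 tested, 14 lay below zero in bitten against naive skin and 6 of them at an unadjusted p under 0.05, and 0 were called. Of all genes, 4.58% were lower at that p. STIP1 (HOP), which bridges HSP70 and HSP90, had 97.1, 84.3 and 85.9 TPM in saliva immune skin and 105, 91.4 and 109 TPM in first exposure skin, against 153 and 149 TPM in CK1 naive skin. The CK1 groups did not overlap, and EF19-5 gave 136 and 129.6 TPM in 3 bites skin and 129.6 and 116 TPM in 2 bites skin, against 153 TPM in the EF19-5 naive library, again with all bitten libraries below naive. Its log2 difference was -0.52 (SE 0.11; limma, adjusted p = 0.105). AHSA1, the activator of the HSP90 ATPase, had 114, 109 and 83.4 TPM in saliva immune skin and 103, 95.1 and 115 TPM in first exposure skin, against 153 and 170.2 TPM in CK1 naive skin, and 134 and 114 TPM in 3 bites skin and 129.7 and 111 TPM in 2 bites skin, against 138 TPM in the EF19-5 naive library. The difference was -0.48 (SE 0.126; limma, adjusted p = 0.13), with all 10 bitten libraries below the naive ones of their experiment. PPID, a cyclophilin that competes with FKBP4 and FKBP5 for HSP90, differed by -0.46 (SE 0.153; limma, adjusted p = 0.201). UNC45B, the myosin chaperone of muscle, CDC37, which loads kinases onto HSP90, and PTGES3 (p23) made up the rest of the 6, with -1.06, -0.22 and -0.26. With median-of-ratios scaling, which lowered the median over all genes, 15 of 18 were below zero. With the muscle covariate 4 were lower at an unadjusted p under 0.05. The median with the EF19-5 libraries alone was -0.14, with 15 of 18 below zero.

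**Figure D5:**
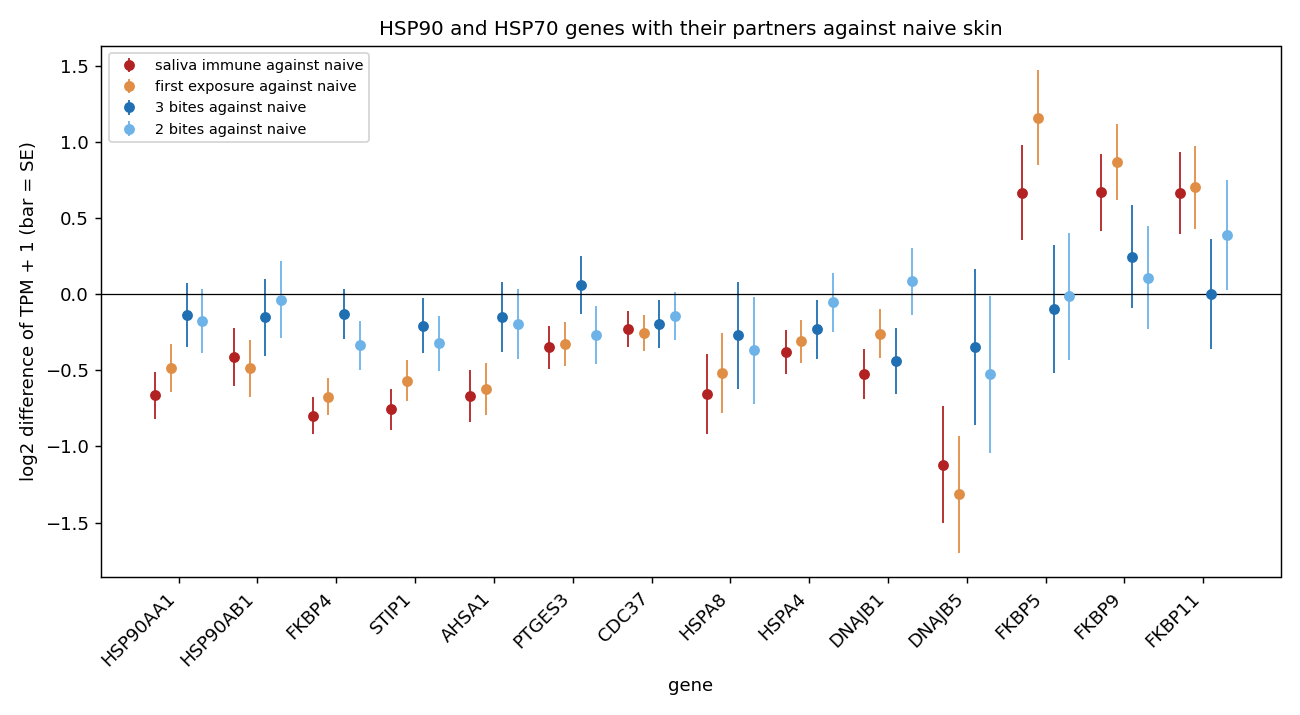
Log2 difference of TPM + 1 against naive skin of the same experiment, with its SE from limma as a bar, for HSP90 and HSP70 genes and their partners and for FKBP5, FKBP9 and FKBP11, in the 4 bitten groups. FKBP4, STIP1, AHSA1 and HSP90AA1 lie below zero by more than their SE in both CK1 groups and nearer zero in the EF19-5 groups, and FKBP5, FKBP9 and FKBP11 lie above zero in CK1.

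The other folding lists were counted in the same comparison. Of 13 genes of the TRiC and prefoldin complexes, which fold actin and tubulin, 11 lay below zero. Of these, 6 had an unadjusted p under 0.05, where 4.58% of all genes were lower. CCT2 had the lowest p, with -0.22 (SE 0.0854; limma, adjusted p = 0.246). With the muscle covariate 4 were lower at that p, and with the EF19-5 libraries alone the median was -0.06. Of 5 genes tested in the heat shock factor list, which also holds HSF2BP, a binding partner of HSF2, 0 passed an unadjusted p of 0.05. HSF1 was at 29.2 to 50.1 TPM in CK1 bitten skin, against 33.1 and 28.6 TPM in CK1 naive skin, and HSF2 at 19.3 to 28.4 TPM, against 27.4 and 22.4 TPM. Of 13 genes in a list of proteasome, ubiquitin and other stress genes, HMOX1 and HIF1A among them, 0 passed. HMOX1, a heme-degrading stress enzyme, had the smallest p among them, with 18.8 to 96.8 TPM in CK1 bitten skin, against 12.7 and 13.8 TPM in CK1 naive skin.

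Of 25 genes of endoplasmic reticulum folding and the unfolded protein response, 19 lay above zero and 6 below. At an unadjusted p under 0.05, 1 was higher and 2 lower, against 11.2% and 4.58% of all genes. With median-of-ratios scaling the split was 10 above and 15 below, so the list has no direction that holds under both. The lower ones were transcription factors of the PERK arm. DDIT3 (CHOP), which promotes cell death under lasting stress, had 18.5, 29.9 and 18.0 TPM in saliva immune skin and 17.9, 18.1 and 25.0 TPM in first exposure skin, against 43.5 and 50.6 TPM in CK1 naive skin. It did not overlap naive skin there or in EF19-5, where it stood at 20.8 and 18.3 TPM in 3 bites skin and 15.7 and 12.5 TPM in 2 bites skin, against 26.6 TPM in the EF19-5 naive library, and its log2 difference was -0.97 (SE 0.186; limma, adjusted p = 0.0729). ATF4, the factor upstream of DDIT3, had 1238, 1985 and 871 TPM in saliva immune skin and 1144, 894 and 1336 TPM in first exposure skin, against 1779 and 2776 TPM in CK1 naive skin. Saliva immune replicate 2 lay between the naive ones, and the difference was -0.73 (SE 0.227; limma, adjusted p = 0.176). P4HB, a disulfide isomerase and collagen hydroxylase subunit, differed by 0.26 (SE 0.104; limma, adjusted p = 0.259), and SERPINH1, the collagen chaperone HSP47, by -0.32 (SE 0.193; limma, adjusted p = 0.43). Immediate early genes, which handling of tissue also induces, lay lower in the same comparison, 7 of 22 at an unadjusted p under 0.05. Their median was -0.72 with the CK1 libraries alone, with 18 of 22 below zero. With the EF19-5 libraries alone it was -0.24, with 14 below zero and 8 above. The part of immediate early genes in these values was not tested.

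The 2 CK1 bitten groups, set against naive skin singly, are given side by side. The comparisons share both naive libraries, so no overlap between them was counted. First exposure against naive skin had 0 of 72 members called, where 0.0334% of all genes were, with 4 higher and 6 lower at an unadjusted p under 0.05, against 9.15% and 4.49% of all genes. Saliva immune against naive skin had 0 called, where 0.00668% of all genes were, with 4 higher and 7 lower, against 9.55% and 2.08%. Libraries did not overlap in 13 members higher and 19 lower in first exposure skin, against 21.9% and 14.1% of all genes, and in 10 higher and 15 lower in saliva immune skin, against 18.5% and 6.22%. FKBP4 had the smallest p in each. In saliva immune skin the other lower members were HSP90AA1, HSPA8, HSPA4, DNAJB1, DNAJB5 and HSP90B1, and the higher ones FKBP7, FKBP9, FKBP11 and DNAJC4. In first exposure skin HSP90AA1, HSP90AB1, FKBP3, DNAJB5 and DNAJC18 were lower and FKBP1B, FKBP5, FKBP9 and FKBP11 higher. FKBP4 was called in saliva immune skin with array weights, adjusted p = 0.0237 by limma, in a fit that called 0.134% of all genes. In that fit saliva immune replicate 1 took a weight of 51.9, against 0.323 and 0.179 for replicates 2 and 3. No member was called in first exposure skin under any alternative.

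Few members separated saliva immune from first exposure skin. limma called 0 of 72 members, and 0% of all genes. At an unadjusted p under 0.05, 1 member was higher, against 1.8% of all genes, and 0 were lower, against 0.547%. That member was DNAJC18, with 4.81, 5.34 and 6.02 TPM in saliva immune and 4.07, 4.12 and 2.24 TPM in first exposure skin, a log2 difference of 0.54 (SE 0.205; limma, adjusted p = 1). Libraries of the groups did not overlap in 6 members. DNAJC18 was higher in saliva immune skin (5.41% of all genes were), and FKBP4, FKBP5, DNAJB1, DNAJB2 and HSPB1 were lower (1.35% of all genes). FKBP5 had 19.0, 20.5 and 22.9 TPM in saliva immune and 37.1, 23.8 and 29.4 TPM in first exposure skin, a log2 difference of -0.49 (SE 0.279; limma, adjusted p = 1). HSPB1 differed by -0.48 (SE 0.226; limma, adjusted p = 1), and DNAJB1 by -0.27 (SE 0.146; limma, adjusted p = 1). Keratinocyte genes lay lower in saliva immune skin in 11 of 11, with a median of -0.34, macrophage genes higher in 12 of 12, with a median of 0.65, fibroblast genes higher in 9 of 9, with a median of 0.56, and smooth muscle genes lower in 8 of 10, with a median of -0.16. Their part in these values was not tested. With array weights 8 members were called, in a fit that called 14.5% of all genes and in which 1 library, saliva immune replicate 1, took a weight of 51.9.

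In EF19-5, comparisons with naive skin rest on 1 naive library, whose spread was taken from the other groups. limma called 0 of 72 members in 3 bites against naive skin, where 0.00668% of all genes were called, and 0 in 2 bites against naive skin, where 0.0134% were. At an unadjusted p under 0.05, 3 bites skin had 0 members higher and 0 lower, against 1.65% and 0.694% of all genes. In 2 bites skin 0 were higher and 4 lower, against 2.7% and 3.16%. Both libraries lay above the naive one in 16 members and below it in 35 in 3 bites skin, against 41.1% and 24.2% of all genes, and in 10 and 32 in 2 bites skin, against 28.6% and 43.3%. The 4 lower members of 2 bites skin were DNAJC16, DNAJC28, DNAJB2 and HSPB8, with log2 differences of -0.70, -0.88, -0.56 and -0.71 and adjusted p of 0.778 to 0.825 by limma. Without the experiment term, which adds the CK1 naive libraries to the comparison, DNAJC28 and DNAJC16 were called, along with 1.7% of all genes.

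Between 3 and 2 bites, limma called 0 of 72 members and 0% of all genes. At an unadjusted p under 0.05, 5 members were higher and 1 lower, against 8.12% and 2.66% of all genes. Libraries did not overlap in 17 members higher and 10 lower, against 35.6% and 11.5% of all genes. DNAJC28 had 3.68 and 3.64 TPM in 3 bites and 1.05 and 1.50 TPM in 2 bites skin, a log2 difference of 1.04 (SE 0.273; limma, adjusted p = 0.332). DNAJC16 had 10.1 and 9.21 TPM and 5.70 and 5.11 TPM in the same order, a difference of 0.73 (SE 0.213; limma, adjusted p = 0.354). Both genes had 2 bites libraries below naive skin and 3 bites libraries near it. HSPB11 had 61.1 and 66.3 TPM in 3 bites and 41.7 and 44.9 TPM in 2 bites skin, a difference of 0.54 (SE 0.163; limma, adjusted p = 0.354), and was called with the muscle covariate, adjusted p = 0.0326, in a fit that called 5.66% of all genes. FKBPL and HSPBAP1 differed by 0.58 each. The lower member was DNAJB1, at 28.3 and 28.3 TPM in 3 bites and 34.9 and 48.5 TPM in 2 bites skin, a difference of -0.52 (SE 0.179; limma, adjusted p = 0.384). Of the abundant chaperones, HSP90AA1 differed by 0.04 (SE 0.172), HSPA8 by 0.10 (SE 0.288) and HSP90B1 by 0.13 (SE 0.206), none at an unadjusted p under 0.05. Macrophage genes lay lower in 3 bites skin in 11 of 12, with a median of -1.11, skeletal muscle genes higher in 24 of 27, with a median of 0.45, and smooth muscle genes higher in 9 of 10, with a median of 0.46. Their part in these values was not tested beyond the muscle covariate.

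The bitten difference was last compared between experiments, which also differ in the number of earlier bites, so that the experiments and the exposure histories cannot be told apart. limma called 0 of 72 members and 0% of all genes. At an unadjusted p under 0.05, 1 member was higher in EF19-5, against 0.574% of all genes, and 1 lower, against 2.24%. FKBP4 differed from naive by -0.23 in EF19-5 and by -0.74 in CK1, and the difference between these was 0.50 (SE 0.183; limma, unadjusted p = 0.0204, adjusted p = 0.999). FKBP7 was the lower one. HSP90AA1 differed from naive by -0.15 in EF19-5 and -0.58 in CK1, a difference of 0.42 (SE 0.238), and FKBP5 by -0.06 and 0.91, a difference of -0.97 (SE 0.474). Neither reached an unadjusted p of 0.05.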

How the data were processed

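RNA of guinea pig skin was sequenced in 13 libraries. The deposited table holds TPM per gene, made by the authors. The submitters' processing notes name Trimmomatic, StringTie and DESeq, without versions. Of the aligner, genome build and strand setting nothing is given in the sources used here. TPM keeps no depth, so counting intervals could not be given; 13270 to 14391 genes reached 1 TPM in a library.

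TPM was tested as log2(TPM + 1), which understates differences of low genes, with limma 3.58.1 in R 4.3.3 (moderated with a mean trend, two-sided). Genes needed 1 TPM in 2 libraries. Bitten against naive skin was fitted with the experiment as a term. The other comparisons came from a fit of all groups with that term. Benjamini-Hochberg adjustment ran over all 14979 tested genes, with a threshold of 0.05, and 8 comparisons were made. The fits were tested on simulated data.

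The members, gene lists and roles were chosen with earlier results of these data known. Named members were 21 present of a panel of 30 and, per comparison and direction, the 6 with the smallest p. Of 72 symbols, 69 matched a RefSeq gene table, which holds none of the table's Ensembl identifiers, so no coordinates are printed.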

Additional observations from a re-analysis of the deposited data

How the results depend on the processing

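No call was made for any member in the 8 comparisons, and the alternatives gave the following exceptions. In bitten against naive skin, 1 member (FKBP4) was called with array weights (-0.51, adjusted p = 0.0401 by limma, 0.614% of all genes called). Without naive replicate 3, again 1, FKBP4, was called (-0.74, adjusted p = 0.0471 by limma, 0.107% of all genes). This setting leaves EF19-5 without naive skin, so its difference is that of CK1. The count of members called in bitten against naive skin ran from 0 to 1 with single libraries left out. With array weights, saliva immune against naive skin called 1 member, FKBP4, and 0.134% of all genes. Saliva immune against first exposure skin called 8 members and 14.5% of all genes with these weights. The 8 were FKBP5, DNAJC27, HSP90B1, DNAJC16, DNAJC3, DNAJC18, FKBP3 and FKBP1B. In both, saliva immune replicate 1 took a weight of 51.9. Without the experiment term, 2 bites against naive skin called 2, and with the muscle score as a covariate 3 against 2 bites called 1, HSPB11. The causes of these shifts were not tested. In the other comparisons leaving out single libraries left the count at 0. FKBP5 in bitten against naive skin reversed to -0.056 with the EF19-5 libraries alone. Members at an unadjusted p under 0.05 in bitten against naive skin numbered 0 to 6 higher and 2 to 13 lower over the alternatives. With median-of-ratios scaling, 21 members lay above zero and 51 below, but this scaling also lowered the median over all genes, from 0.10 to -0.005.

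No paired analysis was possible because the replicate numbers were given in accession order and pair no samples. The difference between experiments could not be fitted without the experiment term, with 1 experiment alone or without naive replicate 3, nor could 2 or 3 bites against naive skin without that library. EF19-5 has 1 naive library, depth is unknown, and the genes that match no symbol were not searched for further chaperones.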

Other observations

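Ratios within muscle were formed after the values had been seen and are given as a description. HSPB7 divided by HSPB6, in TPM, was 0.184 to 0.589 in the 10 bitten libraries, against 0.0945 and 0.0760 in CK1 naive skin and 0.158 in the EF19-5 naive library. Every bitten library lay above every naive one. MYH7 divided by ACTN3, a slow-fibre over a fast-fibre gene, was 0.121 to 1.02 in bitten skin, against 0.0661 and 0.0392 in CK1 naive skin and 0.0641 in the EF19-5 naive library, again without overlap. Both ratios were lowest among CK1 bitten libraries in saliva immune replicate 3.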
